A study of Mus musculus with 8 samples.

Results

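The comparison described here set mouse embryonic stem cells without TRIM71 against wild-type cells, over every gene that passed a filter on low counts. It holds 2 Trim71_knockout libraries and 2 wild_type libraries of the 8 RNA-seq libraries in the series, and 18055 of the 43346 genes in the files were tested. The knockout cells are TRIM71-/- and carry Rosa26Cre-ERT2/BirA-V5. The wild-type cells carry the same Rosa26Cre-ERT2/BirA-V5 alleles and an intact Trim71 gene, and both lines come from a 129xC57BL/6 background. Both were grown on gelatin in medium with serum and LIF, the cytokine that keeps mouse embryonic stem cells from differentiating. The other 4 libraries, of cells with a mutated Mbnl1 3′UTR and of cells overexpressing Mbnl1, entered the filter on low counts and the shared estimate of the spread between replicate libraries, and their values are given at 1 place below. Whether both libraries of a genotype came from separate cultures or clones is not stated, so p-values measure only the spread between libraries, and differences between cell lines cannot be told apart from the knockout.

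TRIM71, also known as LIN-41, is an RNA-binding protein of the TRIM-NHL family and a target of the let-7 microRNA. It is made in pluripotent and other early embryonic cells, it binds short RNA hairpins in messenger RNAs and represses them, and it is lost as cells differentiate. One messenger that it represses in these cells encodes MBNL1, a splicing regulator that favours differentiated splicing patterns.

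Stranded libraries of ribosome-depleted total RNA had been read as 75-nucleotide pairs, and the deposited values are raw counts per gene. The knockout libraries held 86508533 and 82301999 counts, and the wild-type libraries 80640117 and 75056306. Values below are CPM, counts scaled to a common library total with TMM factors, and a gene is called higher or lower when edgeR's quasi-likelihood test gave a Benjamini-Hochberg adjusted p under 0.05 over the 18055 genes. The cell type label was checked against marker genes: 6 markers of embryonic stem cells summed to 4454 and 4476 CPM in knockout libraries, against 3544 and 3513 CPM in wild-type libraries. Pou5f1, the core pluripotency factor, had 1170 and 1170 CPM in knockout cells and 1160 and 1150 CPM in wild-type cells and was not called. The other 5, Nanog, Sox2, Dppa5a, Esrrb and Zfp42, were higher, by log2 changes of 0.32 to 0.94. Summed levels of other cell types' markers were low and moved with genotype. Trophoblast markers summed to 60.51 and 61.7 CPM in knockout libraries, against 35.15 and 32.54 CPM in wild-type libraries. Tfap2c made up most of that sum. Tfap2c, Krt7 and Gata3 were higher, with log2 changes of 0.94, 1.47 and 1.19. The trophoblast regulators Cdx2 and Eomes went the other way, with log2 changes of -1.69 and -0.43, and Elf5 was too low to test. Neural markers summed to 39.89 and 40.97 CPM, against 53.68 and 59.87 CPM. Primitive endoderm markers summed to 24.54 and 24.98 CPM in knockout libraries, against 33.75 and 37.03 CPM in wild-type libraries. Within that list Foxa2 alone was higher, with 17.8 and 18 CPM in knockout libraries and 4.26 and 2.94 CPM in wild-type libraries, and it made up most of the knockout sum. The other 6 were lower, Gata4, Gata6 and Sox17 by log2 changes of -3.49, -3.32 and -3.30. Fibroblast markers summed to 8.05 and 8.33 CPM, against 5.59 and 5.65 CPM, with Postn, Lum and Dcn too low to test. Thy1 made up most of that knockout sum. Thy1 and Col1a1 were higher, Twist1 was lower (log2 change -0.82), and Col1a2 and Col3a1 were not called. The part of such cells in any result was not tested, and in bulk RNA fewer cells of a type and less RNA per cell cannot be told apart.

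Loss of TRIM71 went with many small changes in RNA level. Of the 18055 genes, 8143 (45.1%) were called: 4369 (24.2%) were higher and 3774 (20.9%) were lower in knockout cells. Changes of 2-fold or more were fewer, with 752 genes (4.17%) higher and 603 (3.34%) lower. The median size of a called change was 0.37 on the log2 scale, and 3589 of the called genes, or 44.1%, differed by less than 1.25-fold. Of 14619 protein-coding genes 51.2% were called, 4185 higher (28.6%) and 3295 lower (22.5%), with 4.51% and 3.17% higher and lower by 2-fold or more, and these shares are the background for the gene families below. Both knockout libraries lay above both wild-type libraries for 37.0% of all tested genes and below both for 36.3%, so separation of the libraries alone marks no gene.

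The balance between the directions moved with expression level. Among the 2863 genes at 4 to 16 CPM, 973 were higher and 633 lower (34% against 22.1%). Among the 2726 genes at 64 to 256 CPM, 719 were higher and 817 lower. Below 1 CPM, 574 of 5260 genes were higher and 655 lower, and the median log2 change was -0.12; for the 2764 protein-coding genes at that level the median was 0.01. Most changes of 2-fold or more were in these low genes, 414 higher and 437 lower, while above 256 CPM only 1 gene rose and 1 fell by that much.

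**Figure D1:**
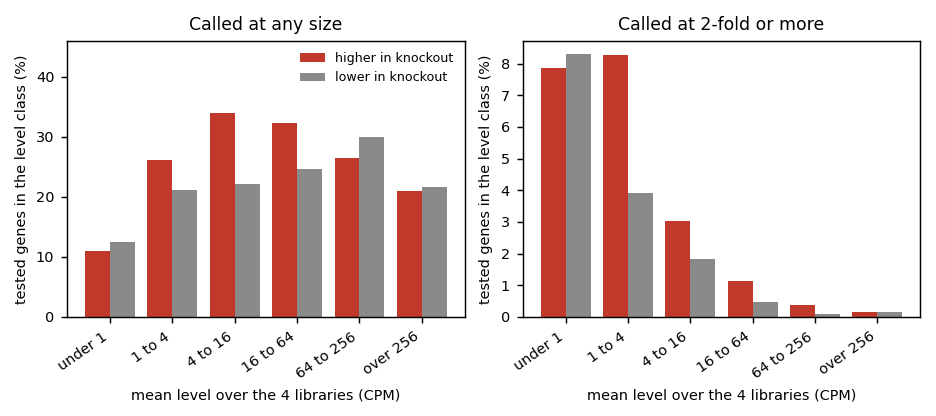
Percentage of tested genes (vertical axes) called higher or lower in knockout cells by mean expression level over the 4 libraries in CPM (horizontal axes), for calls at adjusted p under 0.05 (left) and for those of 2-fold or more (right). In the left panel the higher share peaks at 34% in the 4 to 16 CPM class and the lower share exceeds it at 64 to 256 CPM; in the right panel both shares fall towards the abundant genes.

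Trim71 itself had 101 and 105 CPM in knockout libraries, against 630 and 628 CPM in wild-type libraries, a log2 change of -2.61 (SE 0.0371, adjusted p = 1.62e-18). Its residual counts come from some part of the gene, and gene-level counts do not show which exons they cover. Mbnl1 had 48.8 and 50.9 CPM in knockout cells and 25.9 and 26.1 CPM in wild-type cells, a log2 change of 0.94. Both genes moved without overlap between genotypes.

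Among the 5488 protein-coding genes with a mean of 32 CPM or more, 1515 were higher and 1497 lower. By size of change the first of the higher genes was Ccr4, which encodes a chemokine receptor of T cells and lies beside Trim71. It had 96.7 and 97.3 CPM in knockout cells and 0.215 and 0.212 CPM in wild-type cells, so that it was nearly silent without the knockout (log2 change 8.82, SE 0.0879, adjusted p = 7.6e-21). Tgm2, which encodes the cross-linking enzyme transglutaminase 2, had 70.6 and 69.2 CPM in knockout cells and 15.3 and 16.5 CPM in wild-type cells (log2 change 2.14, SE 0.129, adjusted p = 7.28e-05). Krt17, a keratin of stratified epithelium, had 103 and 105 CPM, against 26 and 23.8 CPM in wild-type cells. Erbb3, a receptor of the EGF receptor family, rose by 1.62 on the log2 scale. Khdc3, which encodes a protein of the maternal complex of early embryos, had 72.7 and 69.2 CPM in knockout cells against 20.6 and 16.5 CPM in wild-type cells, although it shares an exon with a serially named gene. Nkx6-3, a homeobox gene of the stomach, rose by 1.5 and Sorl1, a sorting receptor, by 1.33. Ckb, which encodes the brain form of creatine kinase, was the most abundant of these genes, with 816 and 857 CPM in knockout cells and 354 and 295 CPM in wild-type cells (log2 change 1.37, SE 0.0959, adjusted p = 9.59e-05). In each of these genes both knockout libraries lay above both wild-type libraries.

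The abundant genes that fell included regulators of DNA methylation, of growth control and of chromatin. Dnmt3l, the catalytically inactive partner of the de novo DNA methyltransferases, had 41.4 and 42.1 CPM in knockout cells and 170 and 146 CPM in wild-type cells (log2 change -1.92, SE 0.0865, adjusted p = 1.89e-06). Its partner Dnmt3a had 50.1 and 49.9 CPM, against 106 and 115 CPM in wild-type cells. Ptpn14, a phosphatase that restrains the growth regulator YAP, had 29.5 and 30.4 CPM in knockout cells and 75.9 and 66.8 CPM in wild-type cells. Sfmbt2, an imprinted Polycomb-related gene needed in the placenta, had 28.7 and 28.2 CPM in knockout cells, against 62.6 and 56.8 CPM in wild-type cells. Zmat3, an RNA-binding target of p53, fell by 1.05 on the log2 scale. The zinc finger genes Zfp936 and Zfp534 fell by 1.5 and 1.25. In each of these genes both knockout libraries lay below both wild-type libraries.

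**Figure D2:**
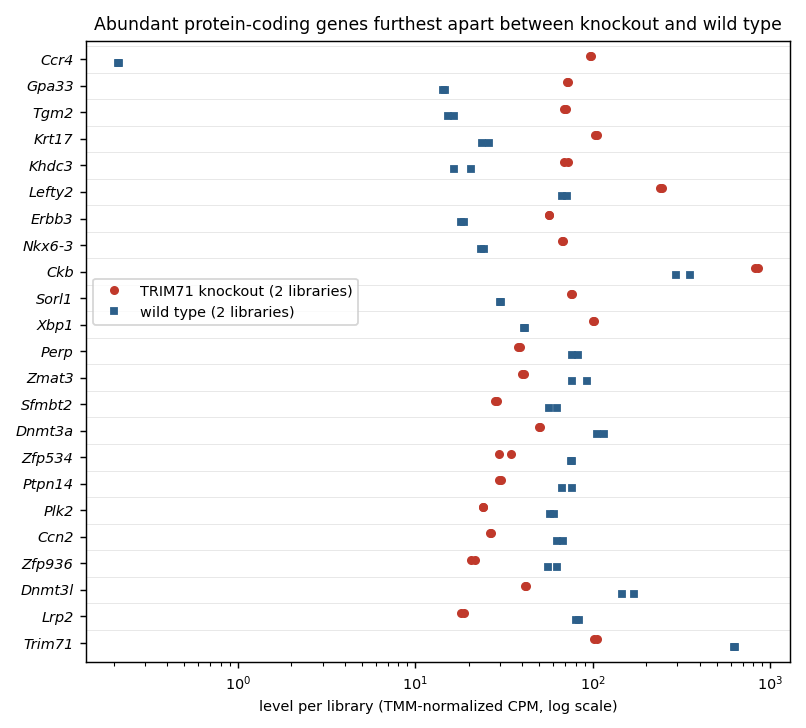
Level in TMM-normalized CPM (horizontal log axis) of 23 abundant protein-coding genes with large changes, with circles for knockout libraries and squares for wild-type libraries, 1 symbol per library. The 2 libraries of a genotype lie close together compared with the gap between genotypes, and Ccr4 shows the widest gap.

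Gene families were formed from gene symbols, and 73 were counted, 68 of them with at least 8 tested members. For 14 families the share called higher was at least 1.5 times the protein-coding background of 28.6%, and for 14 the share called lower was at least 1.5 times the background of 22.5%; integrins met both. These shares are descriptions of counts, and no family was tested as a set.

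**Figure D3:**
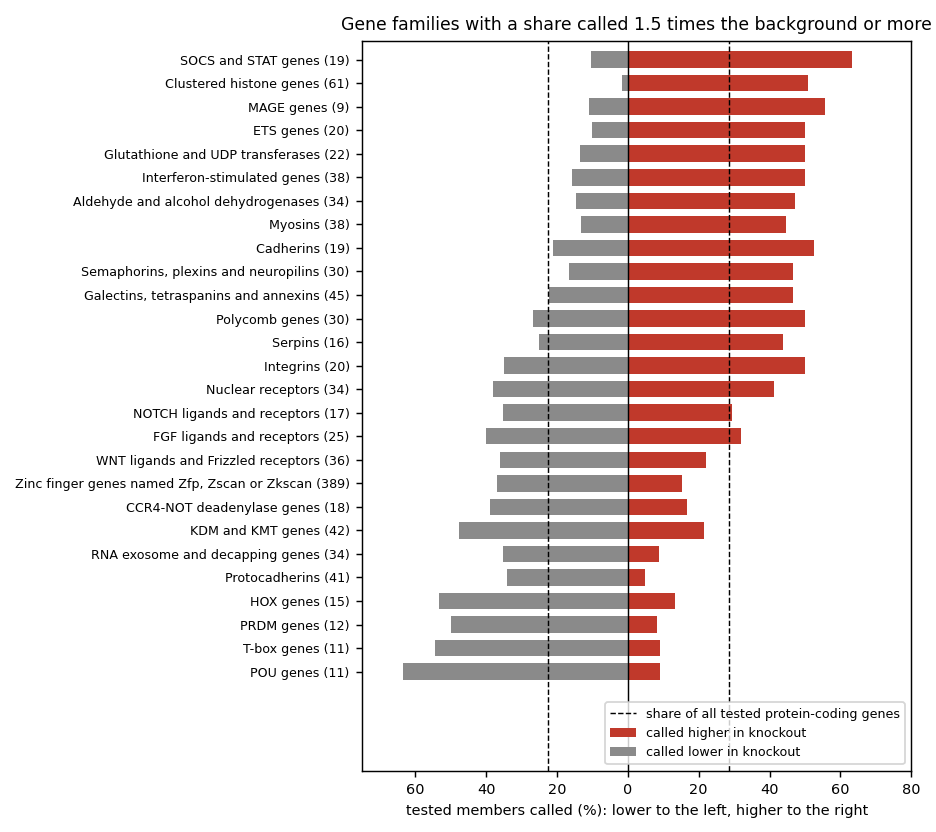
Percentage of tested members called higher (bars to the right) and lower (bars to the left) in knockout cells, for the families whose share in a direction was at least 1.5 times the background, with the number tested in brackets. Dashed lines mark the protein-coding backgrounds of 28.6% higher and 22.5% lower; histones show 50.8% higher and 1.64% lower, and POU genes 63.6% lower.

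Genes that carry cytokine signals from receptor to nucleus were more often higher. LIF acts through the receptor subunit gp130, Janus kinases (JAK) and STAT transcription factors, and SOCS proteins feed back on the pathway. Of 19 tested JAK, STAT and SOCS pathway genes 12 were higher and 2 lower, with a median log2 change of 0.20. Stat5a had 4.67 and 4.71 CPM in knockout cells and 1.41 and 1.64 CPM in wild-type cells (log2 change 1.62, SE 0.123, adjusted p = 9.15e-09). Its paralog and neighbour Stat5b had 14 and 14.2 CPM, against 6.54 and 6.64 CPM in wild-type cells (log2 change 1.10, SE 0.0683, adjusted p = 7.7e-10). Stat6, the mediator of interleukin 4 signals, had 48.3 and 49.5 CPM in knockout cells and 27.7 and 27.3 CPM in wild-type cells. Stat4 rose by 0.72 on the log2 scale. In these 4 genes the genotypes did not overlap.

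Changes in the LIF branch itself were smaller. The following members were looked up after their values were seen. Stat3, which LIF activates, had 177 and 174 CPM in knockout cells and 147 and 140 CPM in wild-type cells, a log2 change of 0.28. Its feedback target Socs3 had 173 and 175 CPM, against 131 and 131 CPM in wild-type cells (log2 change 0.41, SE 0.034, adjusted p = 2.68e-08). Il6st, which encodes gp130, had 87.8 and 88.4 CPM in knockout cells and 81.5 and 85.5 CPM in wild-type cells and was not called (log2 change 0.08, adjusted p = 0.0944). Cish, Socs1 and Socs6 were not called either, and Socs4 and Socs2 were lower, by log2 changes of -0.22 and -0.17.

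Genes that interferons induce, whose products sense and block viral RNA, were counted next. Of 38 tested, 19 were higher (50.0%) and 6 lower (15.8%), with a median log2 change of 0.27. The members divided by subfamily. Oas genes, which encode 2′-5′ oligoadenylate synthetases and related proteins, gave 7 higher and 1 lower of 8, with a median of 1.44. Ifitm genes, which encode membrane proteins that hinder viral fusion, gave 4 higher and 0 lower of 6, with a median of 0.27. Interferon regulatory factors gave 3 higher and 2 lower of 8, and guanylate-binding proteins gave 0 higher and 2 lower of 5.

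Interferon responses act through a promoter element whose core reads GAAANNGAAA, bound by complexes that hold STAT2 and IRF9. The sequences shown are matches in the promoters of Oas1a, Oas1g, Oas1c, Oas3, Ifitm2 and Ifitm3, all of which were higher. They come from RefSeq windows of 250 bases before to 50 after the start, build GRCm38.p6, with matching bases in capitals. Of the other higher genes, Oas2, Ifitm1, Ifitm6 and Irf9 gave no match to show, and the rest, Oas1d and Oasl1 among them, were not searched for sites to print. Bst2 and Gbp9, chosen outside the naming rule and not among the interferon-induced genes called, were searched as well. Bst2 gave a site of 2 overlapping matches, which is not printed, and Gbp9 gave none. In the order of the lines, the Oas sites are at chr5:120907523-120907552 (minus strand), chr5:120887609-120887638 (minus), chr5:120812606-120812635 (plus) and chr5:120777718-120777741 (minus). The Ifitm sites are at chr7:140955991-140956014 (minus) and, for the pair in Ifitm3, chr7:141010726-141010749 and chr7:141010709-141010732 (minus).
Oas1a: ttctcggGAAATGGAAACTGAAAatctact
Oas1g: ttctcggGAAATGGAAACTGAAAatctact
Oas1c: ttcccggGAAATGGAAACTGAAAgtcccat
Oas3: gggaggaGAAAACGAAAgtgaagg
Ifitm2: ccaacagGAAAAGGAAAttgctag
Ifitm3, first site: aattcagGAAAAGGAAActtctga
Ifitm3, second site: cttctgaGAAACCGAAActgccgc

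In the first 3 sites a pair of matches overlap. Read on both strands, GAAANNGAAA was found in 1131 of 32851 promoters (3.44%), in 391 of the 11339 tested protein-coding genes with a promoter entry (3.45%), and in 13 of the 30 tested interferon-induced genes with one (43.3%). Among these 30 genes it was in 8 of the 15 called higher (53.3%) and in 5 of the other 15 (33.3%). A match is a stretch of letters and was not shown here to be a bound site.

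Oas1a had 5.18 and 4.83 CPM in knockout cells and 1.04 and 0.902 CPM in wild-type cells (log2 change 2.36, SE 0.142, adjusted p = 4.63e-10). Oas1g, whose printed site has the same letters as that of Oas1a, had 1.3 and 1.34 CPM in knockout cells, against 0.266 and 0.186 CPM in wild-type cells. Oas1c differed less, with 1.07 and 1.1 CPM in knockout cells and 0.697 and 0.676 CPM in wild-type cells, a log2 change of 0.66. The Oas1 genes are close copies of each other, so reads may have been divided among them. Oas2 had 1.3 and 1.25 CPM in knockout cells against 0.621 and 0.504 CPM in wild-type cells, and Rsad2, which encodes the antiviral enzyme viperin, had 2.55 and 2.66 CPM against 1.09 and 1.17 CPM. Ifit2 rose by 0.58 on the log2 scale. The Ifitm genes were the abundant ones among those named here: Ifitm2 had 159 and 167 CPM in knockout cells and 117 and 112 CPM in wild-type cells (log2 change 0.51, SE 0.0417, adjusted p = 2.17e-08), and Ifitm3 rose by 0.30. The genotypes did not overlap in any gene named in this paragraph.

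Other members went the opposite way at low levels, and the Oas genes were low as well, with a median of 0.566 CPM. Oasl2 had 0.105 and 0.134 CPM in knockout cells and 0.317 and 0.544 CPM in wild-type cells (log2 change -1.84). Gbp2 had 0.0815 and 0.0243 CPM in knockout cells, against 0.773 and 0.835 CPM in wild-type cells. Irf5 had 1.16 and 1.2 CPM, against 1.47 and 1.62 CPM. The interferon regulatory factors Irf9 and Irf1 rose by 0.15 and 0.16 on the log2 scale. Rsad2, Oasl2, Gbp2, Irf5, Irf9 and Irf1 were named after their values were seen.

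Histone genes moved together by a small amount. Replication-dependent histone genes lie in clusters, their messengers end in a stem-loop in place of a poly(A) tail, and libraries of total RNA capture them. Of 61 tested, 31 were higher (50.8%) and 1 was lower (1.64%), with a median log2 change of 0.17. Their summed level was 9390 and 9500 CPM in knockout libraries, against 8690 and 8400 CPM in wild-type libraries. All 5 classes took part: 4 of 6 linker H1 genes, 8 of 17 H2A, 6 of 14 H2B, 5 of 11 H3 and 8 of 13 H4 genes were higher. The 2 groups of histone genes on chromosome 13 had medians of 0.16 over 30 genes and 0.17 over 21.

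Among histone genes with a mean of at least 2 CPM, the largest changes included genes of testis and of solitary loci. Hist1h1t, the linker histone of testis, had 5.59 and 5.5 CPM in knockout cells and 3.04 and 3.39 CPM in wild-type cells, a log2 change of 0.79. Hist1h2aa, a histone H2A gene of testis, had 3.05 and 3.38 CPM, against 1.63 and 1.38 CPM in wild-type cells. Hist3h2ba, which lies outside the main clusters, had 28.8 and 29.1 CPM in knockout cells and 18.3 and 16.3 CPM in wild-type cells. The abundant linker gene Hist1h1e, looked up after its value was seen, had 408 and 425 CPM, against 325 and 320 CPM, a log2 change of 0.37. The exception was Hist2h3c2, the only lower member, with 1.37 and 1.55 CPM in knockout cells and 1.58 and 2.73 CPM in wild-type cells (log2 change -0.56, adjusted p = 0.0453). Histone genes are near-identical copies, and the division of reads among them is uncertain.

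Polycomb proteins, which silence developmental genes by marking histones H2A and H3, also moved more often upward. Of 30 tested genes 15 were higher and 8 lower, with a median log2 change of 0.12; without either the second knockout library or the first wild-type library 9 were higher. Within the complex PRC2, Suz12, an essential core subunit, had 418 and 405 CPM in knockout cells and 257 and 263 CPM in wild-type cells (log2 change 0.66, SE 0.0342, adjusted p = 7.34e-11). Epop, an accessory subunit, had 314 and 314 CPM, against 216 and 203 CPM in wild-type cells. The other core subunits, looked up after their values were seen, did not follow. Eed had 300.0 and 296 CPM in knockout cells and 345 and 351 CPM in wild-type cells, a log2 change of -0.22. Ezh2, the catalytic subunit, had 130 and 119 CPM, against 129 and 136 CPM, and was not called (adjusted p = 0.097). The genotypes separated in opposite directions for Suz12 and Eed and overlapped for Ezh2. Within the complex PRC1, Cbx6, a chromodomain subunit that shares exons with Npcd, rose by 0.56 and Pcgf1 by 0.38, while Phc1 had 171 and 173 CPM in knockout cells and 236 and 227 CPM in wild-type cells.

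Enzymes that methylate or demethylate histone lysines were more often lower. Of 42 tested, 20 were lower (47.6%) and 9 higher, with a median log2 change of -0.12. The methyltransferase gene Kmt2c had 56.7 and 55 CPM in knockout cells and 84.2 and 79.3 CPM in wild-type cells (log2 change -0.55, SE 0.0425, adjusted p = 1.14e-08). Its paralog Kmt2d had 53.4 and 49.1 CPM, against 82 and 66.6 CPM in wild-type cells (log2 change -0.54, SE 0.121, adjusted p = 0.0184). Kdm2b, a demethylase that brings a PRC1 complex to CpG islands, had 153 and 152 CPM in knockout cells and 225 and 220 CPM in wild-type cells. Setd7 fell by 0.72 on the log2 scale. Against this direction, the demethylase Kdm4b had 53.4 and 56.4 CPM in knockout cells, against 37.7 and 36.1 CPM in wild-type cells, and the H4 lysine 20 methyltransferase Kmt5a rose by 0.38. The genotypes did not overlap in any of these genes.

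Families of developmental transcription factors were mostly lower and mostly barely expressed. HOX genes, which set position along the body axis, had 15 of 39 members above the filter, and 8 of the 15 were lower (53.3%) and 2 higher, with a median log2 change of -0.81. Hoxa7 had 0.28 and 0.352 CPM in knockout cells and 1.05 and 0.915 CPM in wild-type cells (log2 change -1.64, SE 0.26, adjusted p = 5.58e-05). Hoxd13 had 0.862 and 0.765 CPM, against 1.33 and 1.54 CPM in wild-type cells. Hoxc8 went the other way, with 0.291 and 0.389 CPM in knockout cells and 0.165 and 0.0398 CPM in wild-type cells. These counts are small: without either knockout library 5 HOX genes were lower, and without the second knockout library 0 were higher. Hoxd13 and Hoxc8 were chosen after their values were seen.

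T-box factors, which specify mesoderm and other early lineages, gave 6 lower (54.5%) and 1 higher of 11, with a median of -0.43. Tbx15, a gene of limb and craniofacial mesenchyme, had 0.559 and 0.595 CPM in knockout cells and 2.79 and 2.65 CPM in wild-type cells (log2 change -2.23, SE 0.165, adjusted p = 6.43e-09). Eomes, a regulator of early mesoderm and endoderm, had 2.66 and 2.42 CPM, against 3.32 and 3.54 CPM in wild-type cells. Mga, a T-box protein that also dimerises with MAX and is abundant in stem cells, had 277 and 267 CPM in knockout cells and 348 and 337 CPM in wild-type cells (log2 change -0.33, SE 0.0359, adjusted p = 7.83e-07). Tbx3, the member linked to naive pluripotency, was the only one higher, with 69.8 and 69.5 CPM against 64.1 and 59 CPM. Tbx15 was named after its value was seen.

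POU factors gave 7 lower (63.6%) and 1 higher of 11, with a median of -0.41. Among them Pou4f2, a gene of retinal ganglion cells, had 23.9 and 24.1 CPM in knockout cells and 33.2 and 30.3 CPM in wild-type cells, and Pou4f1, of sensory neurons, fell by 0.47 on the log2 scale. Pou2f3, the factor of tuft cells and keratinocytes, named after its value was seen, had 2.46 and 2.19 CPM in knockout cells, against 1.37 and 1.31 CPM in wild-type cells. PRDM genes gave 6 lower and 1 higher of 12, but only 3 were lower without the first knockout or the first wild-type library and 2 without the second knockout library. The higher member was Prdm14, which keeps stem cells in naive pluripotency, with 43.6 and 42.5 CPM in knockout cells and 24.8 and 24.3 CPM in wild-type cells (log2 change 0.81, SE 0.0514, adjusted p = 9.3e-10).

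ETS factors had the opposite balance, 10 higher and 2 lower of 20, with a median log2 change of 0.16. Ets2, which acts in trophoblast, had 68.4 and 68.6 CPM in knockout cells and 39.6 and 39.3 CPM in wild-type cells (log2 change 0.80, SE 0.0399, adjusted p = 4.69e-11). Elf4 rose by 0.61 and both Etv3 and Elk3 by 0.40. Etv4 and Etv1, whose transcription FGF signalling drives, fell by 0.27 and 0.29. Nuclear receptors were called in both directions, 14 higher and 13 lower of 34. Their retinoid branch was divided: Rarg had 135 and 137 CPM in knockout cells and 188 and 178 CPM in wild-type cells, and Rxrg had 1.26 and 1.4 CPM, against 3.6 and 3.69 CPM. Rxra, the widely expressed partner receptor, had 20.4 and 20.9 CPM in knockout cells and 12.7 and 12.4 CPM in wild-type cells.

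Zinc finger genes form the largest family of mouse transcription factors, many of which silence transposable elements through KAP1. Of 389 tested genes named Zfp, Zscan or Zkscan, 144 were lower (37.0%) and 59 higher (15.2%), with a median log2 change of -0.09. Few changed by 2-fold or more, 8 lower and 2 higher. Their summed level was 13100 CPM in both knockout libraries, against 13800 and 14000 CPM in wild-type libraries. The cluster of 18 on distal chromosome 4 gave 15 lower and 0 higher, with a median of -0.85. Outside it the balance stayed on the lower side, with 129 lower (34.8%) and 59 higher of 371 and a median of -0.08. Zfp981, in that cluster, had 9.43 and 9 CPM in knockout cells and 24.8 and 23.4 CPM in wild-type cells. Zfp365, outside it, had 12.7 and 12.2 CPM, against 31.1 and 30.9 CPM. Zfp521, a regulator of early neural and blood cells, was higher, with 10.8 and 11.4 CPM in knockout cells and 4.9 and 4.84 CPM in wild-type cells.

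Because TRIM71 represses messengers, genes of messenger RNA decay were counted as a family. The CCR4-NOT complex removes poly(A) tails, and of 18 tested genes of the complex and its partners 7 were lower (38.9%) and 3 higher, with a median log2 change of -0.11. Cnot8, a deadenylase subunit, had 89.7 and 89.4 CPM in knockout cells and 114 and 108 CPM in wild-type cells (log2 change -0.31, SE 0.0375, adjusted p = 3.06e-06). Cnot6l, another deadenylase, had 15.4 and 15.6 CPM, against 20.2 and 19.5 CPM in wild-type cells. Tob2, which recruits the complex, rose by 0.31 and Btg3 fell by 0.24. Genes of the RNA exosome and of decapping gave 12 lower (35.3%) and 3 higher of 34, with a median of -0.07; the lower count was 7 without the first knockout or the first wild-type library and 5 without the second knockout library. Xrn1, the exonuclease that degrades decapped messengers, had 45.1 and 44 CPM in knockout cells and 59.3 and 58.1 CPM in wild-type cells (log2 change -0.40, SE 0.0401, adjusted p = 3.32e-07). Dis3l2, which degrades uridylated let-7 precursors, had 40.9 and 40.8 CPM, against 36.6 and 37.6 CPM. The other TRIM genes stood near the background, with 15 higher and 13 lower of 49 and a median of 0.04.

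Families of adhesion and guidance genes at the cell surface differed in balance. Cadherins, which join neighbouring cells, gave 10 higher and 4 lower of 19, with a median log2 change of 0.40. Cdh3, the placental cadherin, had 48.8 and 49 CPM in knockout cells and 26.2 and 24.3 CPM in wild-type cells (log2 change 0.95, SE 0.0486, adjusted p = 5.9e-11). Dsg2, a desmosomal cadherin, had 49 and 43.7 CPM, against 33.4 and 27 CPM in wild-type cells. Semaphorins and their plexin receptors, which steer cells and axons, gave 14 higher and 5 lower of 30, with a median of 0.30. Plxnb2 had 169 and 168 CPM in knockout cells and 85 and 85.7 CPM in wild-type cells (log2 change 0.98, SE 0.0338, adjusted p = 4.68e-13). Sema5b had 24.4 and 26 CPM, against 14.1 and 13.7 CPM in wild-type cells. Sema6a was lower, with 1.26 and 1.77 CPM in knockout cells and 3.89 and 3.09 CPM in wild-type cells.

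Integrins, the receptors for extracellular matrix, moved both ways, with 10 higher and 7 lower of 20. Leaving out the first knockout or the second wild-type library gave 6 higher, and leaving out the first wild-type library gave 4 lower. Itga6, the laminin receptor subunit of stem cells, had 259 and 259 CPM in knockout cells and 203 and 206 CPM in wild-type cells. Itga8 had 4.69 and 4.3 CPM, against 10.9 and 9.64 CPM. Protocadherins gave 14 lower and 2 higher of 41, with a median of -0.36; clustered members share exons, and the lower count was 6 without the first knockout library and 7 without the first wild-type library. Gap junction genes gave 4 higher and 1 lower of 10. Gjb5, a connexin gene of trophoblast and skin, had 27.9 and 29.7 CPM in knockout cells, against 13.9 and 13.5 CPM in wild-type cells.

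Secreted signals were called both ways. WNT ligands, receptors and antagonists gave 13 lower and 8 higher of 36. Wnt6 had 1.39 and 1.46 CPM in knockout cells and 3.29 and 3.2 CPM in wild-type cells, and Wnt11 fell by 0.82 on the log2 scale. Dkk3, a Dickkopf family member, had 7.14 and 7.99 CPM in knockout cells, against 2.09 and 2.4 CPM in wild-type cells. The FGF family gave 10 lower and 8 higher of 25, and 6 lower without the second knockout library. Fgf15, a target of FGF and Notch signals in early embryos, had 17.3 and 16.2 CPM, against 26.6 and 26.3 CPM. NOTCH pathway genes gave 6 lower and 5 higher of 17. Lfng, which modifies Notch receptors, fell by 1.13, while Hey1, a Notch target, rose by 0.80 and Notch4 by 0.78.

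A pair of enzyme families were more often higher. Glutathione S-transferases and UDP-glucuronosyltransferases gave 11 higher and 3 lower of 22, with a median log2 change of 0.34. Gstt1 had 5.13 and 5.59 CPM in knockout cells and 2.34 and 2.36 CPM in wild-type cells. The 7 Gstm genes tested on chromosome 3 gave 5 higher and 0 lower. Of these, Gstm1 had 20.7 and 20.2 CPM in knockout cells and 12.8 and 12.4 CPM in wild-type cells; it was named after its value was seen. Aldehyde and alcohol dehydrogenases gave 16 higher and 5 lower of 34, with a median of 0.19. Aldh3b2, which oxidises lipid aldehydes, had 4.97 and 5.56 CPM in knockout cells and 0.481 and 0.239 CPM in wild-type cells (log2 change 3.86, SE 0.22, adjusted p = 3.03e-10). Aldh5a1, the succinate semialdehyde dehydrogenase, had 18.9 and 19.3 CPM, against 12 and 11.7 CPM. Rdh11, a retinal reductase, rose by 0.54.

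Myosins, the actin motors, gave 17 higher and 5 lower of 38, and 7 rose by 2-fold or more while 0 fell by that much. Myo1f had 20.1 and 18.9 CPM in knockout cells and 8.18 and 7.68 CPM in wild-type cells. Myo5c, a transport motor of epithelial cells, had 24.5 and 23.4 CPM, against 11.5 and 11.8 CPM in wild-type cells. Galectins, tetraspanins, annexins and S100 genes gave 21 higher and 10 lower of 45. Among them Tspan15 had 4.62 and 4.52 CPM in knockout cells and 2 and 2.4 CPM in wild-type cells, and the galectin Lgals3 had 28 and 28.7 CPM, against 59.7 and 52.6 CPM. Large families of housekeeping function stood near the background or were called less often: proteasome genes gave 8 higher and 5 lower of 47, translation initiation factors 6 higher and 12 lower of 54, and kinesins 13 higher and 12 lower of 40. NADH dehydrogenase genes of the respiratory chain gave 16 higher and 2 lower of 46, with a median of only 0.06.

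Noncoding genes were more often lower than higher. Of 454 tested lincRNA genes 99 were lower (21.8%) and 46 higher (10.1%), and of 259 processed transcripts 57 were lower and 22 higher. Some classes had almost no higher member. TEC genes, GENCODE's class for transcript models awaiting experimental verification, gave 81 lower (25.7%) and 5 higher (1.59%) of 315, with a median log2 change of -0.40. Genes of snoRNAs, which guide the modification of ribosomal RNA, gave 34 lower (16.3%) and 0 higher of 208. Genes of miRNAs gave 22 lower (11.6%) and 1 higher (0.529%) of 189. Of the lower ones 11 lay in a cluster inside Sfmbt2, which fell as well, and outside that cluster 11 of 150 were lower and 1 higher. Without the second knockout or the second wild-type library 16 and 13 snoRNA genes were lower, and 34 and 49 TEC genes. Without the first knockout library 21 snoRNA genes and 55 TEC genes were lower, and processed transcripts moved most without the second wild-type library, to 31 lower. DESeq2 called 18 snoRNA genes and 38 TEC genes lower. For comparison, genes of any class under 1 CPM gave 12.5% lower and 10.9% higher, and most noncoding loci are in that range. Protein-coding genes under 1 CPM gave 15.7% lower and 17.0% higher.

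Many of these loci lie inside a protein-coding gene on the same strand, where reads from the locus and from unspliced RNA of the host cannot be told apart. There were 755 such loci in 553 host genes, and 134 were lower (17.7%) and 6 higher (0.795%). The lower share was below that of all tested genes (20.9%) and above that of genes of any class under 1 CPM (12.5%), a group that holds many of these loci. It was close to that of protein-coding genes under 1 CPM (15.7%). The higher share was below all of these: 24.2% of all tested genes, 10.9% of genes of any class under 1 CPM and 17.0% of protein-coding genes under 1 CPM. Their median log2 change was -0.36, against -0.03 for their hosts, and 575 of the 755 changed by a lower value than the host. The gap was present whichever way the host went. Where the host was not called, the 345 loci had a median of -0.33, against -0.01 for the host. Where the host was called higher, the 155 loci had a median of -0.19, against 0.26 for the host, with 18 lower and 4 higher. Where the host was called lower, the 255 loci had a median of -0.49, against -0.27 for the host. Loci on the strand opposite to their host gave 22 lower and 21 higher of 287, with a median of -0.10, and loci outside protein-coding genes gave 268 lower and 120 higher of 1977.

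Classes differed in how many loci were called. Nested TEC loci gave 64 lower and 1 higher of 208, with a median of -0.45 against -0.01 for their hosts. Of these 112 lay on chromosome 1, with 36 lower, and the 96 on other chromosomes gave 28 lower and 1 higher with a median of -0.38. Nested snoRNA loci gave 31 lower and 0 higher of 172, with a median of -0.33 against -0.03, while the 14 nested antisense loci gave 1 lower and 1 higher. The 110 nested miRNA loci had a median of -0.53 against -0.15, but only 61 of them changed by a lower value than the host. Among the 266 nested loci with a mean of at least 0.5 CPM, a limit set after the values were seen, 82 were lower (30.8%) and 2 higher. The 39 processed pseudogenes among these had a median of -0.05, against -0.03 for their hosts. Without the first or the second knockout library 78 and 54 of the nested loci were lower, and without the first or the second wild-type library 94 and 75; DESeq2 called 57, and a test against a 1.5-fold change called 3.

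The following loci were chosen after their values were seen. Enah, which encodes an actin regulator, had 1100 and 1120 CPM in knockout cells and 1020 and 1030 CPM in wild-type cells and was slightly higher (log2 change 0.12, adjusted p = 0.0212). The TEC locus 2700078F05Rik inside it had 4.59 and 4.13 CPM in knockout cells, against 6.22 and 6.25 CPM in wild-type cells (log2 change -0.52). Nop58, a core protein of snoRNA particles, had 708 and 701 CPM in knockout cells and 689 and 742 CPM in wild-type cells and was not called. Snord70, within that gene, had 1.92 and 1.91 CPM in knockout cells and 2.76 and 2.98 CPM in wild-type cells (log2 change -0.58, SE 0.119, adjusted p = 0.000599). Snora43, a snoRNA gene outside protein-coding genes, had 30.1 and 30.6 CPM, against 36.8 and 38.2 CPM (log2 change -0.31, SE 0.0447, adjusted p = 2.2e-05). In each of these 3 noncoding loci both knockout libraries lay below both wild-type libraries.

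**Figure D4:**
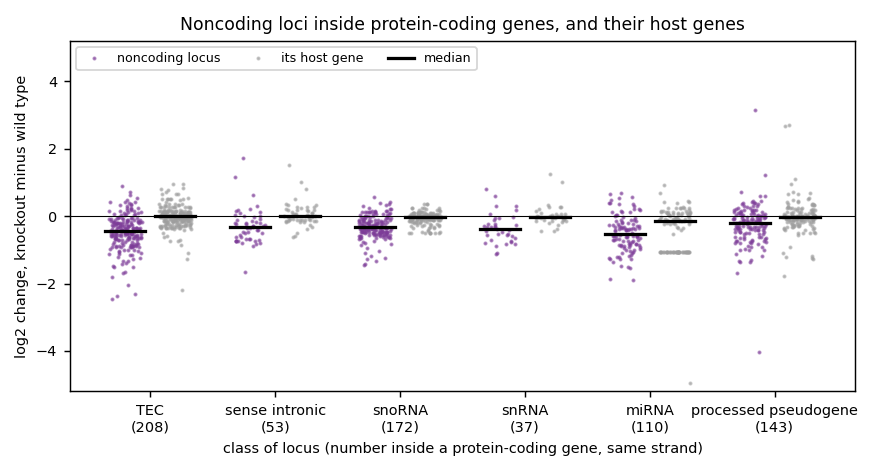
Log2 change (knockout minus wild type, vertical axis) of noncoding loci inside protein-coding genes on the same strand, by class, each beside the changes of the host genes; 1 point is 1 locus or its host, and black lines are medians. In all 6 classes drawn the median of the loci is below that of the hosts, for TEC loci -0.45 against -0.01.

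Summed over all loci of a class without a filter, the same order was seen for TEC, sense-intronic and snoRNA genes but not for lincRNA genes. The lincRNA sums overlapped, with 5760 and 5790 CPM in knockout libraries and 5680 and 6630 CPM in wild-type libraries. TEC genes summed to 255 and 245 CPM in knockout libraries, against 307 and 330 CPM in wild-type libraries, and sense-intronic genes to 42.0 and 41.6 CPM, against 51.4 and 52.1 CPM. For snoRNA genes the sums were 589 and 568 CPM in knockout libraries and 681 and 697 CPM in wild-type libraries. The snoRNA sums of the 2 libraries with a mutated Mbnl1 3′UTR were 552 and 907 CPM, a spread wider than the gap between knockout and wild type, and those of the Mbnl1 overexpression libraries were 521 and 568 CPM, no higher than in the knockout. The share of counts on ribosomal RNA-like genes, a measure of depletion, was 3.47% and 3.04% in knockout libraries and 5.57% and 3.74% in wild-type libraries. Its part in these results was not tested.

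Of 1281 tested genes of long noncoding classes 235 were lower and 108 higher. Both shares were below those of all tested genes, 20.9% lower and 24.2% higher. Against genes of any class under 1 CPM, 12.5% lower and 10.9% higher, the lower share was larger and the higher share smaller. The same held against protein-coding genes under 1 CPM, 15.7% lower and 17.0% higher. Among the long noncoding genes called, 44 had a name of their own and a mean of at least 2 CPM, and 35 of these were lower and 9 higher. Kcnq1ot1, which silences neighbouring imprinted genes on the paternal chromosome, had 54.6 and 47.9 CPM in knockout cells and 82.2 and 87.1 CPM in wild-type cells (log2 change -0.72). Ftx, a regulator of the X-inactivation centre, had 6.31 and 6.14 CPM, against 10.6 and 10.8 CPM in wild-type cells. Meg3, the maternally expressed transcript of the Dlk1-Dio3 region, had 61.7 and 61.1 CPM in knockout cells and 82.2 and 95.2 CPM in wild-type cells. Platr27, a transcript associated with pluripotency, had 2.38 and 2.73 CPM, against 5.04 and 5.76 CPM. Of those that were higher, Vax2os, antisense to the eye gene Vax2, had 4.52 and 4.91 CPM in knockout cells and 1.49 and 1.34 CPM in wild-type cells. The genotypes did not overlap in these 5 genes.

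Reads over miRNA genes come from hairpins and primary transcripts in these libraries, not from mature miRNAs. The mature sequences shown, from RefSeq on GRCm38.p6 with the seed (bases 2 to 8) in capitals, belong to loci that were lower and, as the last 3, to the abundant cluster of embryonic stem cells that was not called. They lie, in order, at chrX:52741697-52741718 (minus strand), chrX:52742381-52742403 (minus), chr12:109586122-109586141 (plus), chr3:157544285-157544306 (plus), chr7:3218968-3218989, chr7:3220691-3220712 and chr7:3220815-3220837 (plus).
miR-363-3p: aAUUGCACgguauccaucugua
miR-18b-5p: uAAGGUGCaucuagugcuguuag
miR-540-3p: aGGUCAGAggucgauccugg
miR-186-5p: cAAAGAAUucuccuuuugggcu
miR-291a-3p: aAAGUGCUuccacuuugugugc
miR-294-3p: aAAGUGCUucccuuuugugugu
miR-295-3p: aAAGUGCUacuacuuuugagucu

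The last 3 share a seed, and miR-18b-5p has another. Their cluster of 7 loci on chromosome 7 summed to 104 and 106 CPM in knockout libraries and 104 and 122 CPM in wild-type libraries, and none of its loci was called. Within it Mir294 had 3.62 and 4.07 CPM in knockout cells, against 3.59 and 4.67 CPM in wild-type cells (log2 change -0.10, adjusted p = 0.549). In the X chromosome cluster 2 of 4 loci were lower, and Mir20b and Mir92-2 were not called (log2 changes -0.06 and -0.57). Mir363 had 0.373 and 0.461 CPM in knockout cells and 0.925 and 0.729 CPM in wild-type cells (log2 change -0.99, SE 0.245, adjusted p = 0.00302). Mir18b, from the same cluster, had 0.827 and 0.789 CPM, against 1.3 and 1.59 CPM in wild-type cells (log2 change -0.84, SE 0.18, adjusted p = 0.000989). The neighbouring transcript Kis2, which shares an exon with another miRNA locus there, had 5.98 and 5.69 CPM in knockout cells and 9.65 and 11.3 CPM in wild-type cells. In the chromosome 12 cluster beside Meg3, Mir540 had 0.21 and 0.389 CPM, against 0.608 and 0.968 CPM (log2 change -1.40, SE 0.308, adjusted p = 0.00122). In none of the 3 lower loci did the genotypes overlap.

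The cluster inside Sfmbt2 on chromosome 2 held 39 tested loci, of which 11 were lower and 0 higher, with a median log2 change of -0.84. It summed to 5.54 and 5.79 CPM in knockout libraries and 10.2 and 10.2 CPM in wild-type libraries, and its host fell as well. Mir186 fell by 0.89 inside Zranb2, a splicing factor gene with a log2 change of 0.03, with 0.256 and 0.474 CPM in knockout cells and 0.494 and 0.862 CPM in wild-type cells. The gap between its genotypes was narrower than the spread within either (adjusted p = 0.0354). Outside clusters 4 of 98 miRNA loci were lower and 1 higher. Of all 189 loci, 10 were lower without the first knockout library, 12 without the second, 10 without the second wild-type library, and 5 by DESeq2. All miRNA loci were named after their values were seen.

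Gene neighbourhoods were read in the order of genes along each chromosome. Around Trim71, 23 other genes within 1 Mb were tested, and 11 were higher and 4 lower, with a median log2 change of 0.14. Of all tested genes 24.2% were higher and 20.9% lower. These neighbours were chosen for their place. Ccr4 lies downstream of Trim71 on the same strand and starts 2.2 kb beyond its end. Osbpl10, an oxysterol-binding protein gene, had 26.4 and 26.4 CPM in knockout cells and 9.12 and 9.15 CPM in wild-type cells (log2 change 1.53, SE 0.0564, adjusted p = 1.02e-12). Cmtm8 had 2.29 and 2.57 CPM, against 0.684 and 0.464 CPM in wild-type cells, and Cmtm7 had 50.3 and 52.2 CPM, against 31.5 and 29.7 CPM. Glb1, the lysosomal beta-galactosidase, was lower, with 33.1 and 33.1 CPM in knockout cells and 47.9 and 44.7 CPM in wild-type cells. Cnot10, which lies among them, had 134 and 134 CPM, against 131 and 124 CPM, and was not called. Changes caused by the deleted allele itself and by loss of the protein cannot be told apart here.

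Across the genome, windows of 10 consecutive tested genes with at least 8 called in 1 direction were rare. Of 17716 windows 40 were on the higher side (0.226%) and 12 on the lower side (0.0677%), and they merged into 17 and 4 blocks. Of the 8 blocks with 10 or 11 called members, 4 held tandem copies. The leading block, at chr4:147492417-147870358 in mm10, held 11 lower genes of 15, with a median log2 change of -0.62. There Zfp985 had 54.4 and 56.5 CPM in knockout cells, against 94.5 and 101 CPM in wild-type cells, and Zfp979 fell by 0.62 on the log2 scale. The neighbours Miip and Fv1 are not zinc finger genes and were also lower, by log2 changes of -0.52 and -0.46; both were named after their values were seen. A second lower block at chr4:145410245-145829942 held 10 of 13, among them Zfp980, with 13.4 and 14.7 CPM, against 29.6 and 30 CPM.

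The RHOX block, at chrX:37126795-38456454, had 10 higher genes of 12, all 6 tested protein-coding Rhox genes among them. Zbtb33, which encodes the methyl-DNA reader Kaiso, lies in it and was lower, with 8.96 and 9.01 CPM in knockout cells and 20.5 and 14.4 CPM in wild-type cells. The Oas block, at chr5:120612739-121191397, had 10 higher of 12. Beyond the Oas genes it took in Dtx1, a Notch regulator with 19.5 and 19.5 CPM in knockout cells and 12.7 and 11.6 CPM in wild-type cells. It also held Ptpn11, the phosphatase SHP2, with 125 and 120 CPM against 104 and 103 CPM. Zbtb33, Dtx1 and Ptpn11 were named after their values were seen.

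The other 4 held genes that are not copies of each other. At chr1:75307896-77515088, 10 of 13 were higher, with a median of 0.47. Its members included Speg, a striated muscle kinase gene with 15.1 and 16 CPM in knockout cells and 8.07 and 8.94 CPM in wild-type cells. Des, the muscle intermediate filament gene, had 22.5 and 23.1 CPM, against 16.2 and 16.6 CPM, and Dnpep, an aspartyl aminopeptidase gene, 116 and 118 CPM against 84.7 and 80.0 CPM. At chr11:69759890-69900987, 10 of 13 were higher, among them Acap1 with 12.3 and 12.3 CPM in knockout cells and 7.4 and 6.91 CPM in wild-type cells, and Zbtb4, a reader of methylated DNA, which rose by 1.15 on the log2 scale. At chr19:44989101-45579763, 10 of 12 were higher, Pdzd7 with 2.13 and 2.25 CPM, against 0.684 and 0.809 CPM, and Lzts2 with 27.9 and 29.3 CPM, against 18.9 and 19.4 CPM. At chrX:99003248-101059667, 10 of 12 were higher, Stard8 with 36.5 and 39.2 CPM in knockout cells and 17.8 and 14.6 CPM in wild-type cells, and Efnb1, a guidance ligand, with 13 and 13.7 CPM, against 8.21 and 9.11 CPM. In all genes named from these 4 blocks the genotypes did not overlap.

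**Figure D5:**
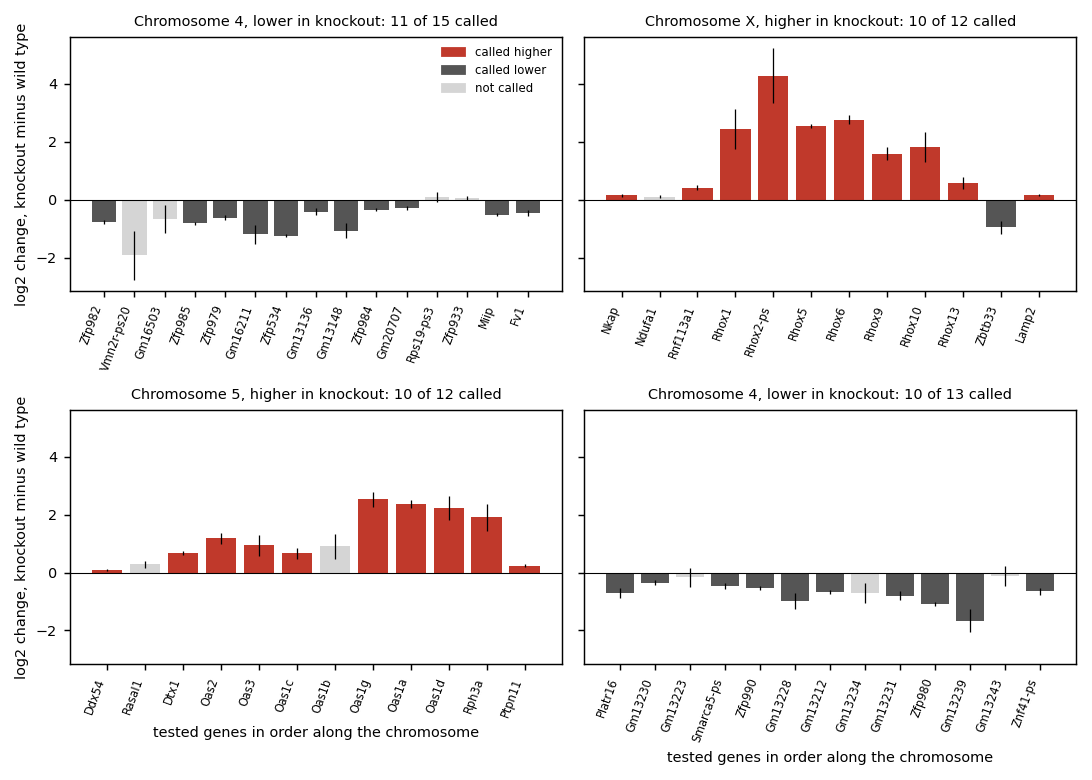
Log2 change (knockout minus wild type, vertical axis) of each tested gene in the first 4 blocks, ranked by number of genes called in a direction and, among ties at 10, by the size of the median change, in gene order along each block; vertical lines are 1 SE to either side and pale bars are genes not called. The 2 chromosome 4 blocks lie mostly below 0, and the blocks on chromosomes X and 5 mostly above it; the bar of Rhox2-ps is a fitted value against 0 and 1 counts in wild-type libraries and gives no fold.

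Tandem clusters were defined as at least 4 tested members of a family with gaps of at most 500 kb, and of 49 such clusters 9 had at least 75% of members called in the same direction. Besides those above, they included the Ifitm cluster with 4 of 5 higher, the Hoxa cluster with 3 of 4 lower, and 3 small zinc finger clusters on chromosomes 5, 8 and 10 with 3 of 4, 4 of 4 and 3 of 4 lower.

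Head-to-head genes, which start within 1 kb of each other on opposite strands, were compared with other neighbours. Of 1630 such pairs 88 were both higher, 90 both lower and 79 opposite, so that 69.3% of the 257 pairs with both genes called moved the same way. Of 3513 other neighbouring pairs with both genes called, 62.0% moved the same way, and the difference was not tested. Head-to-head pairs that moved by 2-fold or more were few, 6 of the 1630 the same way and 0 opposite. Of all 16411 other neighbouring pairs, 146 moved the same way by that much and 36 opposite. The share that moved together by 2-fold or more was thus smaller among head-to-head pairs. Ccdc38, a sperm gene, had 1.42 and 1.31 CPM in knockout cells and 0.304 and 0.239 CPM in wild-type cells, and its partner Amdhd1, a histidine catabolic enzyme gene, had 0.326 and 0.231 CPM, against 0.076 and 0.0663 CPM. Hist1h2ba, a testis H2B gene paired with Hist1h2aa, had 1.75 and 1.87 CPM in knockout cells, against 0.659 and 0.583 CPM in wild-type cells. On the lower side, Tmem267 had 0.291 and 0.255 CPM in knockout cells and 0.57 and 0.544 CPM in wild-type cells, beside a serially named partner that fell too. In each of these pairs both genes changed without overlap between the genotypes.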

How the data were processed

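RNA-seq libraries of mouse embryonic stem cells were analysed from raw counts per gene, which the authors deposited 1 table per library. Alignment with STAR 2.5.0 to mm10 is given by the submitters' processing notes; no source used here gives the annotation release or the strand setting of the counting. Gene classes and positions came from GENCODE M21, matched by gene ID for 42462 of 43346 genes, and 27979 genes had a count. The test was edgeR 4.0.16 (glmQLFit, glmQLFTest) in R 4.3.3 on all 8 libraries as 4 group means, with TMM scaling and filterByExpr, and with Benjamini-Hochberg adjustment over 18055 genes; 2 libraries against 2 cannot give an exact permutation p below 0.333. Tested on simulated counts over these 18055 genes, it recovered 50.4%, 66%, 86% and 96.8% of genes changed by 1.25, 1.5, 2 and 4-fold, and 5.67% of its calls were false. The simulation gave every gene the same spread beyond counting noise and changed far fewer genes than were called here. Its rates therefore need not hold for the real counts. Depth was 75056306 to 86508533 counts. Alternatives were DESeq2 1.42.0, other scalings and filters, a test against 1.5-fold (glmTreat), a replicate block and leaving out each library. Replicate numbers did not pair the libraries: correlations of deviations ran from -0.0343 to 0.06.

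The gene families, marker lists and rules were chosen with earlier results of these data known. Named genes were Trim71 and Mbnl1; the 12 highest and 12 lowest called changes among protein-coding genes of at least 32 CPM; up to 4 members per family that passed 1.5 times the background, by size of change among members with a mean of at least 2 CPM, with up to 2 of the other direction; the most changed named noncoding genes; and the most changed members of blocks, tandem clusters and head-to-head pairs. Names outside this rule are said to be so, and a few genes that meet it are not reported here. No gene had 3 or fewer counts in both libraries of a genotype and 100 or more in both of the other. Promoter and miRNA sequences are RefSeq's; 129 of 189 tested miRNA loci had an entry.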

Additional observations from a re-analysis of the deposited data

How the results depend on the processing

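No direction among the 334 genes followed across settings reversed in any of the 18 alternatives run, and 157 kept their call in every alternative that tested them. The naming rules picked these genes mainly as called and most changed in the same counts, so reversals were unlikely from the start. Counts moved most with the size threshold. A test against a 1.5-fold change called 1163 genes, 731 higher and 432 lower, and of these 879 changed by 2-fold or more, 335 of them lower. With genes under 1 CPM left out, 493 genes changed by 2-fold or more, 326 higher and 167 lower. Leaving out 1 library at a time gave 6034 to 8724 called genes, 3396 to 4708 higher and 2638 to 4019 lower, and 1174 to 1409 at 2-fold or more, 677 to 792 higher and 497 to 618 lower. Adding a replicate block called 7951 genes, 7868 of them shared with the fit without it, 4283 higher and 3668 lower, with 747 and 591 at 2-fold or more; the labels tie the replicate numbers to no shared culture, and the correlation of deviations between same-numbered knockout and wild-type libraries was 0.00782. DESeq2 called 6625 genes, 6578 of them shared. The median change of all tested genes stayed between -0.006 and 0.002 across scalings. Depth limits calls in genes below 1 CPM, where family and noncoding counts rest on few reads.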
